A study of Mus musculus with 48 samples.

Results

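Injured brain tissue was compared between day 7 and day 3 after permanent middle cerebral artery occlusion (MCAO), a mouse model of ischemic stroke in which the artery is coagulated, cut and never reopened. The comparison held 10 of the 48 libraries of the series, MCAO day 3 A to E and MCAO day 7 A to E, which were taken by their labels alone. All 46983 listed genes were kept apart from the spike-in and summary lines, and the 19970 with more than 10 counts over the 48 libraries were tested. The question was which genes still moved between both days within the injury, so that neither controls nor shams entered the contrast itself.

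Both injured groups came from male C57Black/6 mice of 3 months, as the study's methods give strain, sex and age, and the labels name no transgene or drug for either. The shams, 4 libraries on each day, had the anaesthesia (isoflurane), the skin incision and the opening of the skull in common with the MCAO mice, but their artery was not coagulated. MCAO at this place leaves a small infarct in the parietal cortex, and per the labels each sample held affected together with unaffected tissue, while the series' own design text speaks of forebrain hemispheres. The share of lesioned tissue in each library is not given, and the study counts its bulk replicates in mice, though the labels tie no library to a named mouse. P-values of the main fit rest on the spread between libraries, as labelled, within all 11 groups of the series. They do not rest on the spread of the 10 compared libraries alone.

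An infarct is cleared and walled off in steps. Neutrophils and monocytes enter from the blood, resident microglia and astrocytes become reactive and many of them divide, dead cells and myelin are taken up by phagocytes that load lipid, and fibroblasts and astrocytes lay down a scar around new vessels. Acute stress and proliferation belong to the first days, and phagocyte, myelin repair and scar programs to the days after.

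Counts on genes ranged from 1865528 to 2194243 in the 5 day 3 libraries and from 1522668 to 2017801 in the 5 day 7 libraries. Levels are given as CPM (the usual scaling of counts to a common library size, here after TMM adjustment), and 3 counts were worth 1.32 to 1.88 CPM in the 10 libraries. Neuronal transcripts of the labelled tissue were present in each library, with *Slc17a7*, the glutamate transporter of cortical synaptic vesicles, at 303 to 511 CPM on day 3 and 308 to 594 CPM on day 7. *Gfap*, the intermediate filament of reactive astrocytes, lay above all 8 shams in all 10 libraries. It was at 192, 698, 1185, 1087 and 1029.9 CPM on day 3 and at 411, 537, 146, 403 and 561 CPM on day 7, against 31.4 to 44.8 CPM in the day 3 shams and 40.1 to 59.3 CPM in the day 7 shams.

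Of the injured libraries, 2 stood apart from the others of their day. In the plot of gene lists by library, MCAO day 3 A was the lowest day 3 library for 25 of 33 gene lists and the lowest of all 10 for 19, and for 10 lists it lay within the range of the 4 day 3 shams. MCAO day 7 C was the highest day 7 library for 22 lists and the highest of all 10 for 9, among them reactive microglia, lysosome, complement and collagen scar. Genes described with a fold change whose call differs without both libraries are therefore given both ways. The 2 libraries were singled out on their values, so the counts without them describe how far the comparison rests on them and are no independent test of it.

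With all 10 libraries, 7 genes passed the test, 3 higher and 4 lower on day 7. Higher were *Wdfy1*, *Igf1* and *Tenm4*, and lower were *Lcn2*, *Chil1*, *Gpd1* and *Mrps6*. A gene was called at an adjusted p under 0.01 by edgeR's quasi-likelihood test (Benjamini-Hochberg over the 19970 genes) with an absolute log2 fold change over 0.58, and the 7 calls were 0.0351% of the genes tested. At a looser adjusted p under 0.05 with no minimum fold change, 41 genes were lower and 17 higher on day 7, which were 0.205% and 0.0851% of the genes tested. Of these 58 genes, *Igf1* and *Tenm4* alone met the rule for leading changes, a call with no overlap between the days, and the other genes described were chosen by list or after their values had been seen.

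*Lcn2* (ENSMUSG00000026822.14, chromosome 2, 32384633 to 32388252, in GRCm38) codes for lipocalin 2, an iron-scavenging protein of neutrophils and of acutely reactive astrocytes. Its day 3 libraries A to E held 0, 14.9, 82.4, 22.95 and 34.8 CPM and its day 7 libraries A to E held 1.73, 0.509, 0, 0.9596 and 0.626 CPM. It was at 0 in day 3 A and high in the other 4, while the day 7 libraries held 7 counts in total, against 0 to 2.18 CPM in the day 3 shams and 0 to 0.467 CPM in the day 7 shams. The log2 fold change was -5.22, SE 0.90, adjusted p = 0.00436, the largest fall among the called genes. *Chil1* (ENSMUSG00000064246.10, chromosome 1, 134182176 to 134190181), a chitinase-like protein made by reactive astrocytes and macrophages, was at 5.87, 19.4, 31.96, 16.6 and 82.4 CPM on day 3 and at 4.04, 6.11, 4.16, 3.36 and 5.01 CPM on day 7 (log2 fold change -2.78, SE 0.49, adjusted p = 0.00436). The shams held 1.87 to 5.802 CPM on day 3 and 4.11 to 5.6 CPM on day 7. Day 3 A lay among the day 7 libraries and day 3 B to E far above them.

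*Gpd1* (ENSMUSG00000023019.12, chromosome 15, 99717515 to 99725005), the cytosolic glycerol-3-phosphate dehydrogenase that links glycolysis to lipid synthesis and is rich in oligodendrocytes, was at 33.6, 71.4, 111, 97.2 and 93.4 CPM on day 3 and at 32.3, 40.7, 33.9, 36.9 and 27.6 CPM on day 7 (log2 fold change -1.24, SE 0.22, adjusted p = 0.0047). The shams were at 32.8 to 55.1 CPM on day 3 and 54.5 to 95.3 CPM on day 7. Day 3 B to E thus lay above all day 3 shams, and all 5 day 7 libraries lay below all day 7 shams. *Mrps6* (ENSMUSG00000039680.9, chromosome 16, 92058270 to 92112227), a subunit of the mitochondrial ribosome, was at 50.2, 73.7, 108, 146 and 97.4 CPM on day 3 and at 49.6, 47.3, 42.8, 51.3 and 38.2 CPM on day 7 (log2 fold change -1.05, SE 0.20, adjusted p = 0.00678). The shams were at 30.01 to 40.6 CPM on day 3 and 38.7 to 53.7 CPM on day 7, so that 4 of 5 day 7 libraries lay within the range of their shams. In both genes day 3 A overlapped the day 7 libraries and B to E did not.

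*Igf1* (ENSMUSG00000020053.18, chromosome 10, 87858265 to 87937042), the insulin-like growth factor that microglia secrete after injury, was at 21.4, 24.4, 28.96, 23.4 and 34.8 CPM on day 3 and at 45, 37.2, 440.2, 36.5 and 52.6 CPM on day 7. All day 7 libraries were above all day 3 libraries, but day 7 C lay far above the rest of its day. The log2 fold change was 2.19, SE 0.39, adjusted p = 0.00436, with all 10 libraries. Without day 3 A and day 7 C it was 0.61, SE 0.22, adjusted p = 0.087, and *Igf1* was the 1 of the 7 genes that was no longer called then. The shams stayed at 12.7 to 22.6 CPM on day 3 and 13.2 to 17.3 CPM on day 7.

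*Wdfy1* (ENSMUSG00000073643.11, chromosome 1, 79702262 to 79776143), an endosomal protein with a FYVE domain that acts in Toll-like receptor signalling, was at 17.6, 13.6, 15.5, 9.77 and 20.3 CPM on day 3 and at 54.2, 58.02, 61.3, 54.2 and 12.5 CPM on day 7 (log2 fold change 1.65, SE 0.28, adjusted p = 0.00436). Day 7 A to D lay close together and above all day 3 libraries, and day 7 E lay within the day 3 range. The shams did not overlap between the days, with 14.99 to 17.4 CPM on day 3 and 28.9 to 38.9 CPM on day 7, but their difference missed the threshold (log2 fold change 0.97, SE 0.32, adjusted p = 0.184). *Tenm4* (ENSMUSG00000048078.16, chromosome 7, 96171246 to 96911093), a teneurin that joins cells across synapses and takes part in oligodendrocyte maturation, was at 175, 151, 108, 139 and 137 CPM on day 3 and at 240.0, 264, 205, 233 and 224 CPM on day 7 (log2 fold change 0.72, SE 0.13, adjusted p = 0.00531). The shams were at 178 to 223 CPM on day 3 and 195 to 292 CPM on day 7. All day 3 libraries lay below the lowest of their shams, and the day 7 libraries lay within the range of theirs.

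**Figure D1:**
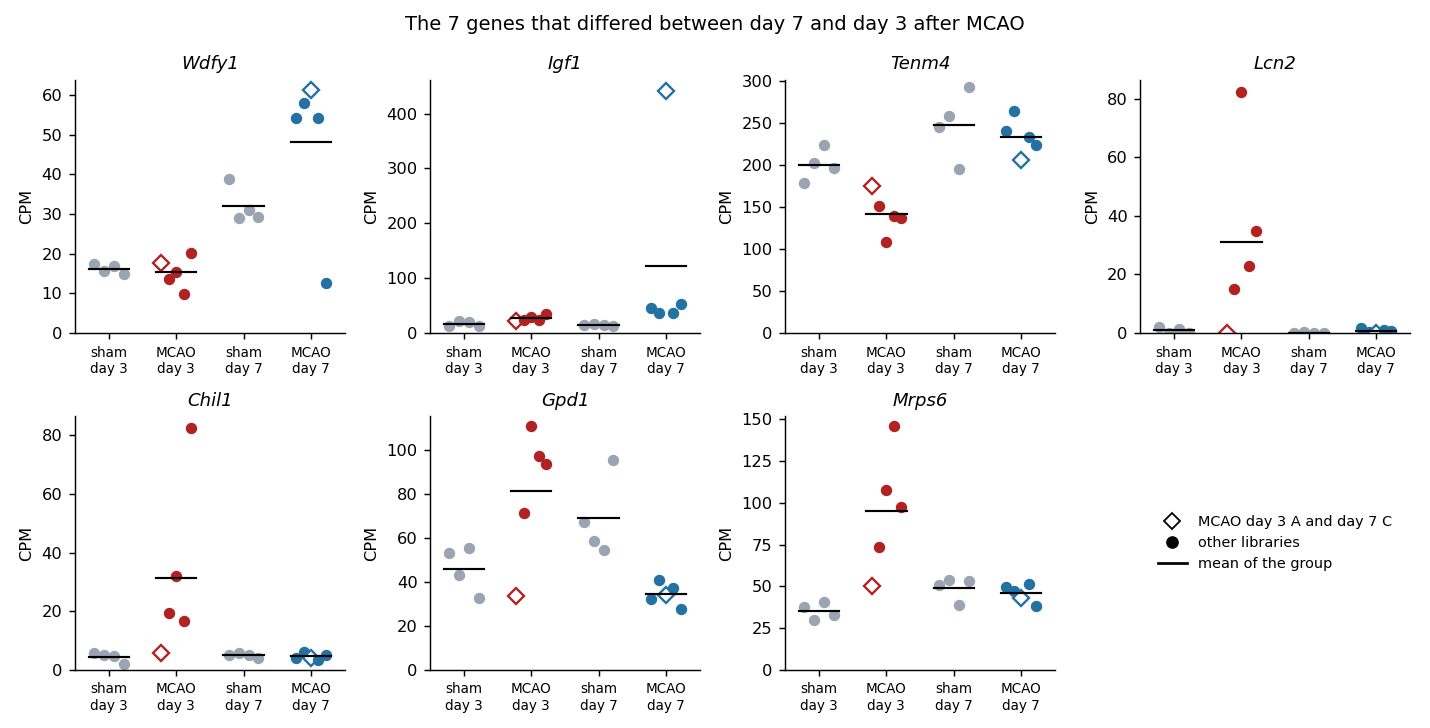
CPM (linear axes from 0) of the 7 called genes in the 4 day 3 shams, 5 day 3 MCAO, 4 day 7 shams and 5 day 7 MCAO libraries, 1 point a library, with the group mean as a line and MCAO day 3 A and day 7 C as open diamonds. The open diamond of day 3 lies among the day 7 points for *Lcn2*, *Chil1*, *Gpd1* and *Mrps6*, and for *Igf1* that of day 7 lies far above the other points.

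The number of calls turned on which libraries were in the fit. Without MCAO day 3 A, 105 genes were called (31 higher and 74 lower), and without MCAO day 7 C, 88 (9 higher and 79 lower). Without day 3 B, C, D or E the counts were 13, 0, 11 and 1, and without day 7 A, B, D or E they were 4, 1, 1 and 7. The count of 0 without day 3 C came with 1655 genes at an unadjusted p under 0.05. Without both day 3 A and day 7 C, 530 genes were called, of which 138 were higher (0.691% of the genes tested) and 392 lower (1.96%) on day 7. DESeq2 called 45 genes with all 10 libraries, the 7 among them. A limma-voom fit with a variance factor for each group called 0, with 2078 at an unadjusted p under 0.05. An edgeR fit of the 10 libraries alone also called 0, with 1888 at an unadjusted p under 0.05, and all 7 were among these. The 58 genes at an adjusted p under 0.05 became 447 without day 3 A and 381 without day 7 C. They became 39, 3, 30 and 22 without day 3 B, C, D or E, and 21, 12, 14 and 40 without day 7 A, B, D or E. Limma-voom gave 11 and the 10 libraries alone 1. The fit without both libraries, given for single genes below, gave 1235, so it shows the less strict side of this range.

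**Figure D2:**
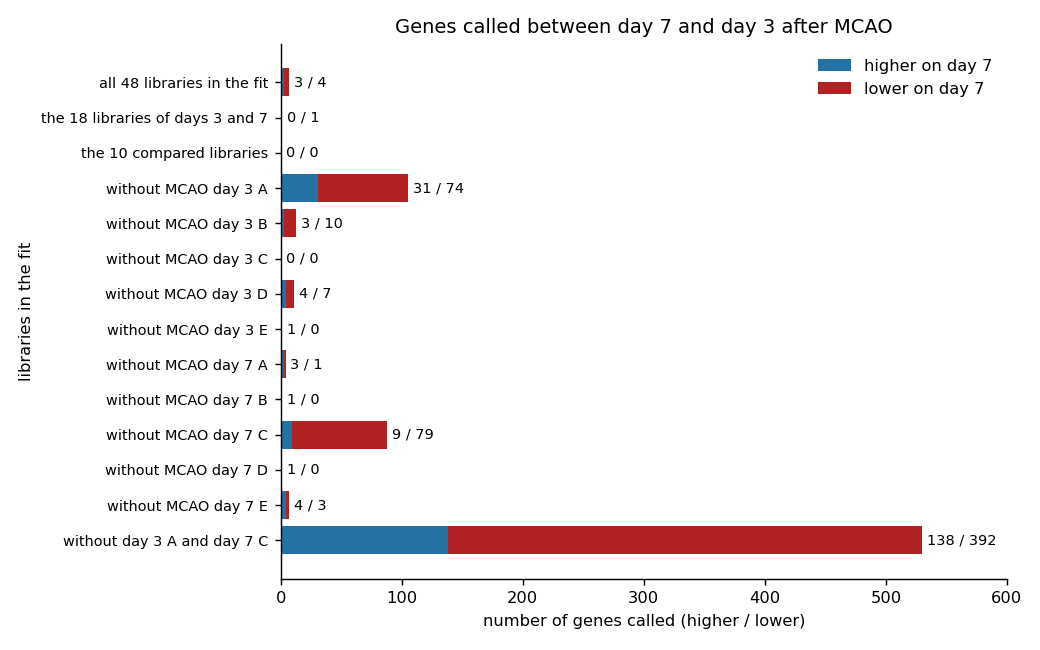
Number of genes called between day 7 and day 3 after MCAO (x axis) by the libraries in the fit (y axis), with genes higher on day 7 in blue and lower in red and both numbers printed as higher / lower. The bars without day 3 A (31 / 74), without day 7 C (9 / 79) and without both (138 / 392) stand far beyond the others, of which none exceeds 13 calls.

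In most of the 530 genes the left-out libraries lay towards the level of the other day. Of the 392 lower genes, day 3 A was the lowest day 3 library in 383 and day 7 C the highest day 7 library in 358. Of the 138 higher genes, day 3 A was the highest day 3 library in 132 and day 7 C the lowest day 7 library in 113. Over the 10227 genes with a mean of at least 10 CPM, day 3 A was the lowest of its day in 2843 and the highest in 3063, and day 7 C the highest in 2960 and the lowest in 3006. The 530 genes had been picked without both libraries, so these positions are a description.

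Of the 58 genes at an adjusted p under 0.05, 12 did not overlap between the days, 6 higher and 6 lower. Over all genes tested, 0.556% did not overlap and were higher and 0.856% did not overlap and were lower. Besides *Igf1* and *Tenm4*, the higher ones included *Zdhhc20*, *Gm20386* and *Trp53bp1*, and the lower ones were *Grrp1*, *Sart1*, *Trbc2*, *Cpne9*, *Etv5* and *Robo4*. *Etv5*, a transcription factor downstream of growth factor signalling in glia, was at 60.9, 83.1, 57.9, 79.1 and 68.3 CPM on day 3 and at 43.3, 32.1, 45.8, 31.7 and 46.3 CPM on day 7 (log2 fold change -0.82, SE 0.20, adjusted p = 0.0491, and -0.92, adjusted p = 0.00719, without both libraries). Against 74.3 to 105 CPM in the day 3 shams and 85.6 to 188 CPM in the day 7 shams, all 5 day 7 libraries were below their shams. *Trbc2*, a constant segment of the T cell receptor beta chain, was at 20.3, 23.9, 13.5, 26.4 and 20.7 CPM on day 3 and at 3.46, 3.05, 5.95, 0.4798 and 1.25 CPM on day 7. *Trbc2* had a log2 fold change of -2.89, SE 0.66, adjusted p = 0.0339, and -3.34, adjusted p = 0.00485, without both libraries. Here too, against 10.3 to 42.2 CPM in the day 3 shams and 26.6 to 41.97 CPM in the day 7 shams, the injured day 7 libraries were the low ones. *Robo4*, a guidance receptor of endothelium, was at 4.27, 8.13, 14.5, 7.32 and 15.4 CPM on day 3 and at 1.15, 4.07, 1.19, 2.399 and 3.76 CPM on day 7 (log2 fold change -1.95, SE 0.47, adjusted p = 0.0491, and -1.97, adjusted p = 0.00928, without both libraries).

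Further genes at an adjusted p under 0.05 were outside the lists and were chosen after their values had been seen. *Hbegf*, a growth factor that binds heparin, was at 21.9, 48.4, 91.9, 112 and 102 CPM on day 3 and at 34.04, 24.9, 23.2, 32.6 and 33.2 CPM on day 7 (log2 fold change -1.35, SE 0.28, adjusted p = 0.0138, and -1.51, adjusted p = 0.000131, without both libraries). *Ier3*, an early response gene, was at 25.6, 65.1, 207, 64.5 and 131 CPM on day 3 and at 18.5, 18.8, 47, 18.7 and 28.2 CPM on day 7. *Ier3* had a log2 fold change of -1.92, SE 0.38, adjusted p = 0.0112, and -2.48, adjusted p = 1.99e-05, without both libraries. *Lrg1*, a secreted glycoprotein of inflamed endothelium and neutrophils, was at 6.41, 18.5, 131, 9.28 and 82.4 CPM on day 3 and at 4.04, 7.12, 16.7, 9.596 and 9.39 CPM on day 7 (log2 fold change -2.4, SE 0.51, adjusted p = 0.0153, and -2.98, adjusted p = 0.000104, without both libraries). In each of these genes day 3 A was the lowest day 3 library and lay below or among the day 7 libraries. *Il4ra*, the receptor for interleukin 4 and interleukin 13, was at 4.805, 29.8, 118, 32.7 and 79.3 CPM on day 3 and at 5.19, 10.2, 36.3, 8.16 and 10.02 CPM on day 7 (log2 fold change -1.93, SE 0.44, adjusted p = 0.0317, and -2.94, adjusted p = 1.06e-06, without both libraries). *Selp*, P-selectin, which catches leukocytes on activated endothelium, was at 0.534, 4.07, 43.9, 6.35 and 19.4 CPM on day 3 and held 3 counts over the 5 day 7 libraries (adjusted p = 0.0142, and 0.000861 without both libraries, edgeR). Of the 41 lower genes, day 3 A was the lowest day 3 library in 36, and of the 17 higher genes day 7 C was the highest day 7 library in 8.

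The 33 gene lists, each of a cell type or a process, held 571 genes that were tested. Over all 19970 genes the median log2 fold change was -0.02 with 10 libraries and -0.03 without day 3 A and day 7 C, with 9367 genes above 0 and 10457 below it. At an unadjusted p under 0.05, 952 genes were higher and 1358 lower. Of the list genes, 20 passed an adjusted p under 0.05 by edgeR, 23 by DESeq2 and 1 by limma-voom, and 179 had an unadjusted p under 0.05. In 21 lists no member passed an adjusted p under 0.05 by edgeR, and DESeq2 had such a member in 4 of these. Without both libraries 108 list genes were called lower and 3 higher, where over all genes tested 1.96% were called lower and 0.691% higher. Scaling to the spike-ins moved the median of all genes to 0.14. Fewer cells of a type and less of its RNA in each cell cannot be told apart in these bulk libraries.

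**Figure D3:**
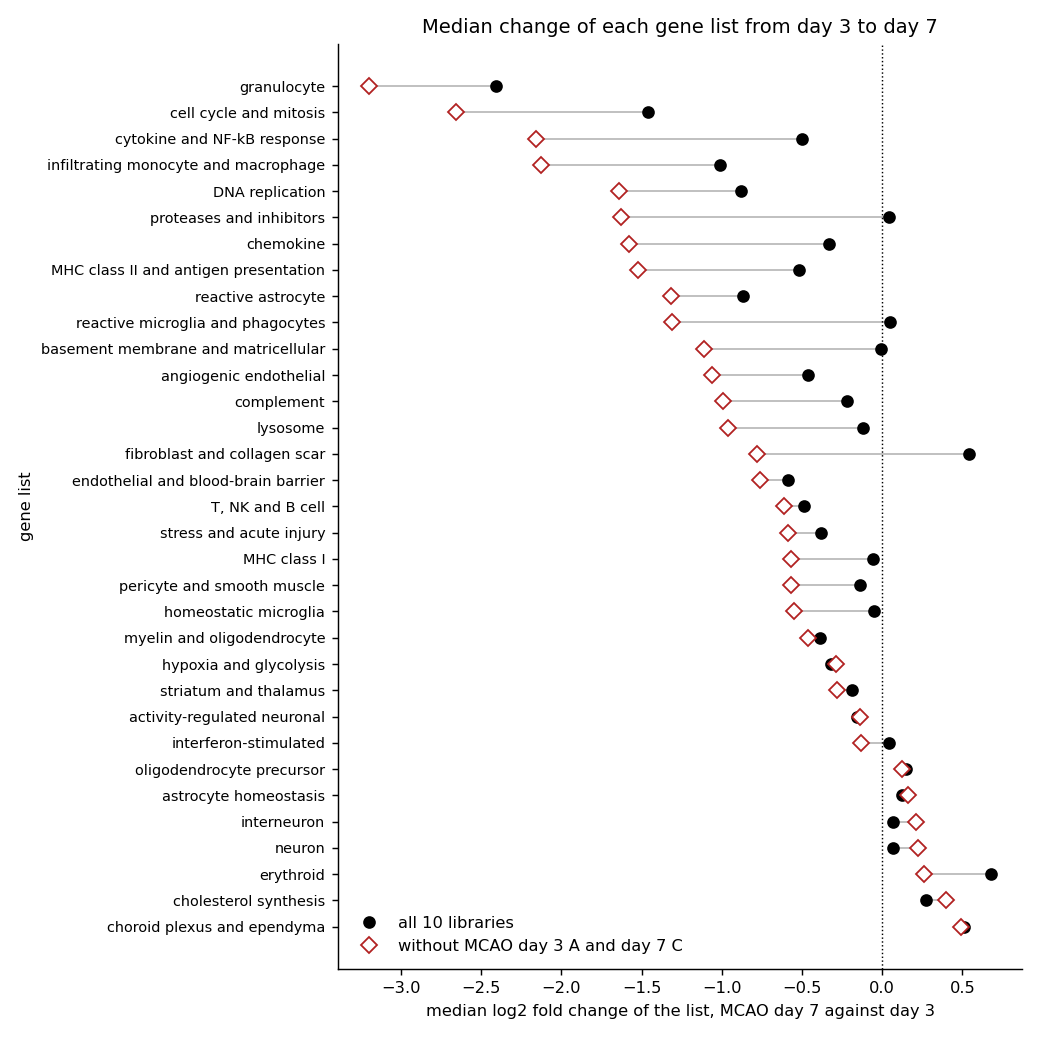
Median log2 fold change from day 3 to day 7 after MCAO (x axis) of each of 33 gene lists (y axis), with all 10 libraries as filled circles and without day 3 A and day 7 C as open diamonds. The diamonds of many immune, proliferation and matrix lists lie far left of their circles, as for proteases (0.04 and -1.63) and collagen scar (0.54 and -0.78). Those of interferon-stimulated genes (0.04 and -0.13) and of T, NK and B cells (-0.49 and -0.61) lie close to theirs. The diamonds of neurons, astrocyte homeostasis and cholesterol synthesis lie right of their circles.

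Genes of cell division mostly had a negative log2 fold change, and with all 10 libraries nearly all missed the threshold. Of 35 mitosis genes, 33 had a negative log2 fold change with all 10 libraries (median -1.46), 27 were lower at an unadjusted p under 0.05, and 1 passed an adjusted p under 0.05. Without day 3 A and day 7 C, 22 were called lower (median -2.66). The 1 gene was *Ccnd1*, cyclin D1, which takes cells into the cycle. It was at 154, 269, 526, 509 and 465 CPM on day 3 and at 185, 150.1, 199, 189 and 207 CPM on day 7. The shams of *Ccnd1* held 164 to 208 CPM on day 3 and 145 to 169 CPM on day 7. After MCAO *Ccnd1* had a log2 fold change of -1.05, SE 0.21, adjusted p = 0.0129, and -1.28, adjusted p = 2.71e-05, without both libraries. Of 25 DNA replication genes, 24 had a negative log2 fold change (median -0.88). By edgeR 0 of them passed an adjusted p under 0.05, with 14 lower at an unadjusted p under 0.05, and 8 were called lower without both libraries (median -1.64).

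*Top2a*, the topoisomerase that untangles replicated chromosomes, was at 6.41, 84.05, 146, 135 and 169 CPM on day 3 and at 12.7, 11.7, 126, 9.596 and 12.5 CPM on day 7. Day 3 A lay below all day 7 libraries, and day 7 C lay within the range of day 3 B to E. The log2 fold change was -1.66, SE 0.49, adjusted p = 0.149, with all 10 libraries and -3.52, SE 0.35, adjusted p = 1.47e-09, without both. *Mki67*, which codes for the Ki-67 protein of cycling cells, was at 2.14, 18.5, 33.96, 24.4 and 36.1 CPM on day 3 and at 5.77, 2.54, 35.7, 3.84 and 1.88 CPM on day 7, with shams of at most 0.456 CPM. *Mki67* had a log2 fold change of -1.22, SE 0.57, adjusted p = 0.397, and of -2.98, SE 0.52, adjusted p = 0.000139, without both libraries. *Cdk1*, the kinase that starts mitosis, was at 0.534, 31.2, 47.4, 50.3 and 55.5 CPM on day 3 and at 5.77, 8.14, 48.8, 8.64 and 6.26 CPM on day 7. *Cdk1* had a log2 fold change of -1.26, SE 0.59, adjusted p = 0.4, and of -2.66, SE 0.52, adjusted p = 0.000669, without both libraries. *Pbk*, a mitotic kinase, was at 3.74, 13.1, 12.98, 19.5 and 17.6 CPM on day 3 and at 1.15, 1.53, 6.54, 4.798 and 1.25 CPM on day 7. *Pbk* had a log2 fold change of -2.11, SE 0.60, adjusted p = 0.127, and of -2.78, SE 0.64, adjusted p = 0.00516, without both libraries. In each of these genes day 3 A was the lowest day 3 library and day 7 C the highest day 7 library. *Mki67* and *Cdk1* were picked from the list outside the naming rules. Among replication genes, *Rrm2*, a subunit of the enzyme that makes deoxynucleotides, was at 1.07, 12.7, 19.98, 27.8 and 38.8 CPM on day 3 and at 3.46, 0, 20.8, 1.92 and 1.88 CPM on day 7. *Rrm2* had a log2 fold change of -1.86, SE 0.62, adjusted p = 0.22, and of -3.76, SE 0.61, adjusted p = 4.21e-05, without both libraries. The helicase subunit *Mcm7* ranged over 14.4 to 91.7 CPM on day 3 and 9.81 to 54.1 CPM on day 7, again with day 3 A lowest and day 7 C highest of its day (log2 fold change -1.25, SE 0.33, adjusted p = 0.0815, and -1.99, adjusted p = 1.05e-05, without both libraries).

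Promoters of mitosis genes are known to share short elements, and 4 are shown beside the levels above. The sequences shown are those of the 4 genes with the lowest p in the 10 libraries among the mitosis genes that were called without both libraries and have a RefSeq promoter, 250 bases before to 50 after the start (GRCm38.p6). Capitals mark the CHR element (TTTGAA or TTCGAA) and the CCAAT box (CCAAT), each read on both strands, through which the DREAM and MMB complexes and NF-Y are known to act on mitotic genes. They are *Ube2c* (chr2:164769679-164769978, plus strand), *Top2a* (chr11:99024140-99024439, minus strand), *Birc5* (chr11:117848987-117849286, plus strand) and *Plk1* (chr7:122159185-122159484, plus strand).
Ube2c: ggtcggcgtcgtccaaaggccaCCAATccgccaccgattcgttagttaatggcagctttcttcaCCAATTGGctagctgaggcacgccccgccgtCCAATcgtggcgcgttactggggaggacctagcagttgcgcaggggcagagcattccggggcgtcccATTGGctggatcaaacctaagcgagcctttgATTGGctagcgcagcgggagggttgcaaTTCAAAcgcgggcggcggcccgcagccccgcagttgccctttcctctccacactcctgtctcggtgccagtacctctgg
Top2a: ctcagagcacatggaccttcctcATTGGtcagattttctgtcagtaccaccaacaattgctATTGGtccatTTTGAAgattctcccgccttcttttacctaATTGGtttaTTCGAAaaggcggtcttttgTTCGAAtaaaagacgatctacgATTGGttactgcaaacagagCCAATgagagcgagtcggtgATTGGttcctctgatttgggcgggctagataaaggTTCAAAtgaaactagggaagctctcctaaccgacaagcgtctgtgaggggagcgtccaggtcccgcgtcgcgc
Birc5: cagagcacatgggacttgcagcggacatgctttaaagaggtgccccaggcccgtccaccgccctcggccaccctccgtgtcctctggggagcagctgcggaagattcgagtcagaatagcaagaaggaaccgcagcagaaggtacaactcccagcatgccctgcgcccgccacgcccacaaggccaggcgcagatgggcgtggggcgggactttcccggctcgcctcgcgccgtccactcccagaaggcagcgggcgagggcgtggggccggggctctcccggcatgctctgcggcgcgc
Plk1: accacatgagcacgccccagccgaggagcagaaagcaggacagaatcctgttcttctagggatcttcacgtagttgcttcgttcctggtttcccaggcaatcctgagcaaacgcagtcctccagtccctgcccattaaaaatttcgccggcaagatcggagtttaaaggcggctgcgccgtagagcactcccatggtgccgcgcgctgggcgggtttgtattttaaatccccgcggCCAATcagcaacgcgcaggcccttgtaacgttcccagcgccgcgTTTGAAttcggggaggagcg

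A CHR element was found in 21 of 28 mitosis promoters (75%), in 5 of 22 replication promoters (22.7%) and in 19.4% of all 27025 promoters. CCAAT was found in 23 of 28 (82.1%), in 14 of 22 (63.6%) and in 37.9%, and both in 20 (71.4%), in 4 (18.2%) and in 7.7%. The E2F element, searched as TTTGGCGC, TTTGCCGC, TTTCGCGC and TTTCCCGC on both strands, was found in 1 mitosis promoter (3.57%), in 8 replication promoters (36.4%) and in 2.32% of all promoters. The printed promoters of *Ube2c*, *Top2a* and *Plk1* hold both a CHR element and a CCAAT box, and these letters do not occur in the window of *Birc5*. The lists were written from common knowledge of these programs, so the shares describe the lists, and a match is a match of letters only. *Ube2c*, which tags cyclins for destruction, was at 1.07, 23.9, 42.9, 31.3 and 41.9 CPM on day 3 and at 5.19, 5.09, 20.8, 1.92 and 8.14 CPM on day 7. *Ube2c* had a log2 fold change of -1.79, SE 0.52, adjusted p = 0.135, and -2.79, adjusted p = 6.35e-05, without both libraries. *Birc5*, the survivin of the mitotic spindle, was at 4.27, 23.5, 53.9, 40.04 and 49.8 CPM on day 3 and at 6.92, 6.11, 33.3, 4.32 and 8.14 CPM on day 7 (log2 fold change -1.56, SE 0.46, adjusted p = 0.15, and -2.71, adjusted p = 2.24e-05, without both libraries). The mitotic kinase *Plk1* was at 5.87, 19.4, 35.5, 43.9 and 51.6 CPM on day 3 and at 4.04, 6.62, 32.7, 7.197 and 6.89 CPM on day 7 (log2 fold change -1.46, SE 0.45, adjusted p = 0.176, and -2.59, adjusted p = 4.63e-05, without both libraries). In *Ube2c*, *Birc5* and *Plk1*, too, day 3 A was the lowest day 3 library and day 7 C the highest day 7 library.

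Granulocyte and monocyte genes were uneven across the day 3 libraries and highest in C and E. Relative to the shams of the day, the mean level of the granulocyte list was 0.41, 0.98, 3.65, 0.84 and 1.84 in day 3 A to E (log2 scale). That of the monocyte and macrophage list was 0.22, 1.37, 3.17, 1.26 and 2.66. Of 14 granulocyte genes tested, 11 had a negative log2 fold change (median -2.41), 3 passed an adjusted p under 0.05 (*Lcn2*, *S100a8* and *S100a9*) and 1 was called, against 5 called lower without day 3 A and day 7 C. *S100a8*, a subunit of the neutrophil alarmin calprotectin, was at 2.67, 4.97, 328, 4.88 and 35.3 CPM on day 3 and at 2.88, 4.07, 5.35, 4.798 and 3.13 CPM on day 7 (log2 fold change -4.18, SE 0.96, adjusted p = 0.0339, and -4.6, adjusted p = 0.00294, without both libraries). *S100a9*, its partner, was at 1.601, 8.59, 246, 4.39 and 31.3 CPM on day 3 and at 2.88, 2.54, 1.19, 4.798 and 2.51 CPM on day 7 (log2 fold change -4.32, SE 1.04, adjusted p = 0.0491, and -4.45, adjusted p = 0.00694, without both libraries). Day 3 C held most of both, and over the fits that left out 1 injured library the log2 fold change ranged from -4.49 to -1.55 for *S100a8* and from -4.63 to -2.0 for *S100a9*. Of 19 monocyte and macrophage genes, 14 had a negative log2 fold change (median -1.01), and 6 were called lower without both libraries (median -2.13). With all 10 libraries 1 passed an adjusted p under 0.05, *Arg1*, the arginase of wound macrophages. It was at 0, 12.7, 140.3, 14.2 and 115 CPM on day 3 and at 1.15, 0.509, 6.54, 0 and 0 CPM on day 7. *Arg1* had a log2 fold change of -5.12, SE 0.97, adjusted p = 0.0107, and -7.23, adjusted p = 1.62e-05, without both libraries. *Ccr2*, the receptor that draws monocytes out of the blood, was at 1.601, 8.13, 43.4, 2.93 and 25.6 CPM on day 3 and at 0, 0.509, 8.33, 1.92 and 1.25 CPM on day 7. *Ccr2* had a log2 fold change of -2.76, SE 0.72, adjusted p = 0.0815, and of -4.32, SE 0.79, adjusted p = 0.000276, without both libraries. Both were highest in day 3 C and E, and on day 7 in C. Of 10 lymphocyte genes tested, *Trbc2* passed an adjusted p under 0.05 and the rest did not, among them *Ighm*, the heavy chain of IgM, at 11.7, 34.3, 32.96, 45.9 and 41.9 CPM on day 3 and 25.4, 13.2, 7.73, 12.5 and 18.2 CPM on day 7. The mean level of this list, relative to the shams of the day, ranged only from -0.13 to 0.34 on day 3 and from -0.46 to 0.05 on day 7 (log2 scale). *Trbc2* RNA was also present in all shams, as given above. Hemoglobin RNA of red blood cells was present, with *Hbb-bs* at 54.99 to 287 CPM on day 3 and 15.6 to 433 CPM on day 7, against 5.14 to 9.43 CPM in the day 3 shams and 2.33 to 26.3 CPM in the day 7 shams. The study's dissection protocol names perfusion with buffer, and the part of remaining blood in these lists was not tested.

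The list of reactive microglia and phagocytes changed its sign with the libraries used. Of 22 genes, 13 had a positive log2 fold change with all 10 libraries (median 0.05), and 2 passed an adjusted p under 0.05, both higher (*Igf1* and *Apoe*). Without day 3 A and day 7 C 20 were negative (median -1.31) and 11 were called lower. *Apoe*, the lipid carrier of astrocytes and phagocytes, was at 2493, 2817, 3530.2, 2411 and 4318 CPM on day 3 and at 3369, 4095, 14649, 3673 and 4559 CPM on day 7. The days overlapped, and day 7 C lay far above all others. *Apoe* had a log2 fold change of 0.96, SE 0.23, adjusted p = 0.0469, and of 0.26, SE 0.16, adjusted p = 0.385, without both libraries. *Trem2*, the lipid receptor of microglia, was at 13.9, 45.6, 70.4, 50.8 and 59.5 CPM on day 3 and at 23.7, 35.6, 183, 18.7 and 30.1 CPM on day 7. Day 3 A lay below all of day 7 and day 7 C above all of day 3. *Trem2* had a log2 fold change of 0.27, SE 0.39, adjusted p = 0.847, and of -1.06, SE 0.31, adjusted p = 0.0253, without both libraries. All injured libraries were above the shams of their day, with 2.803 to 9.69 CPM in the day 3 shams and 7.09 to 12.3 CPM in the day 7 shams.

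Markers of lipid-loaded phagocytes showed the same spread, and *Spp1*, *Gpnmb* and *Cd68* among them were picked outside the naming rules. *Spp1*, osteopontin, was at 4.805, 109.8, 592, 69.8 and 561 CPM on day 3 and at 49.6, 49.4, 2585, 59.98 and 40.7 CPM on day 7. *Spp1* had a log2 fold change of 1.05, SE 0.72, adjusted p = 0.588, and of -2.73, SE 0.48, adjusted p = 0.000139, without both libraries. *Gpnmb*, a glycoprotein of lysosomes in foamy macrophages, was at 2.67, 43.8, 182, 55.7 and 250.3 CPM on day 3 and at 17.9, 28.5, 1549, 31.2 and 35.1 CPM on day 7. *Gpnmb* had a log2 fold change of 1.63, SE 0.68, adjusted p = 0.34, and of -2.24, SE 0.42, adjusted p = 0.000361, without both libraries. In both, day 7 A, B, D and E lay close together and below day 3 B to E, and day 7 C lay above all other libraries. *Cd68*, a lysosomal protein of phagocytes, was at 13.3, 66.9, 145, 91.8 and 121 CPM on day 3 and at 28.3, 22.4, 254, 17.3 and 34.4 CPM on day 7. *Cd68* had a log2 fold change of -0.31, SE 0.43, adjusted p = 0.834, and of -2.06, SE 0.28, adjusted p = 3.31e-06, without both libraries. Of 22 lysosome genes 0 passed an adjusted p under 0.05 by edgeR, with 0 higher and 0 lower at an unadjusted p under 0.05, and 11 were called lower without both libraries (median -0.12 with all 10 libraries and -0.96 without both). *Lipa*, the acid lipase that frees cholesterol in lysosomes, was at 17.6, 51.97, 146, 44.9 and 155 CPM on day 3 and at 23.1, 21.4, 155, 26.4 and 36.95 CPM on day 7. *Lipa* had a log2 fold change of -0.67, SE 0.37, adjusted p = 0.488, and -1.89, adjusted p = 1.99e-05, without both libraries. Of 14 complement genes 0 passed by edgeR, with 0 higher and 0 lower at an unadjusted p under 0.05, and 5 were called lower without both libraries (median -0.22 with all 10 libraries and -0.99 without both). *C5ar1*, the receptor for the C5a fragment, was at 1.07, 5.42, 22.5, 8.301 and 14.98 CPM on day 3 and at 0.577, 2.04, 16.1, 0.4798 and 2.51 CPM on day 7 (log2 fold change -1.29, SE 0.73, adjusted p = 0.498, and -3.16, adjusted p = 0.0087, without both libraries).

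In the list of homeostatic microglia the shift was smaller. Of 15 genes, 0 passed an adjusted p under 0.05 by edgeR, with 0 higher and 3 lower at an unadjusted p under 0.05, and 3 were called lower without both libraries (median -0.05 with all 10 libraries and -0.55 without both). *P2ry12*, the purine receptor of resting microglia, was at 15.5, 22.6, 21.97, 36.6 and 22.9 CPM on day 3 and at 29.4, 29.5, 24.99, 23.99 and 16.3 CPM on day 7. *P2ry12* had a log2 fold change of 0.06, SE 0.32, adjusted p = 0.981, and of -0.06, SE 0.35, adjusted p = 0.964, without both libraries. *Fcrls*, an Fc receptor-like protein of microglia, was at 51.2, 183, 477, 298 and 329 CPM on day 3 and at 51.9, 65.7, 399, 50.9 and 97.1 CPM on day 7. *Fcrls* had a log2 fold change of -1.01, SE 0.36, adjusted p = 0.253, and of -2.28, SE 0.24, adjusted p = 7.07e-09, without both libraries. *P2ry12* thus overlapped fully between the days, while in *Fcrls* day 7 A, B, D and E lay below day 3 B to E. Of 12 genes of MHC class II and antigen presentation 0 passed by edgeR, with 0 higher and 1 lower at an unadjusted p under 0.05, and 2 were called lower without both libraries, *Cd74* and *Ctss*. *Cd74*, the invariant chain, was at 6.41, 10.8, 79.4, 11.2 and 54.6 CPM on day 3 and at 3.46, 10.2, 41.6, 11.04 and 11.3 CPM on day 7 (log2 fold change -1.07, SE 0.53, adjusted p = 0.424, and -2.1, adjusted p = 0.00941, without both libraries). Of 12 MHC class I genes 0 passed by edgeR, with 0 higher and 1 lower at an unadjusted p under 0.05, and 0 were called without both libraries.

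The mean level of interferon-stimulated genes lay above that of the same day's shams in all 10 libraries, though little so in day 3 A, with no test of this difference. Of 22, 12 had a positive and 10 a negative log2 fold change from day 3 to day 7 (median 0.04), 0 passed an adjusted p under 0.05 by edgeR, with 0 higher and 1 lower at an unadjusted p under 0.05, and without both libraries 1 was called lower, *Ifitm3*. The mean level of the list was above the shams of the day by 0.23 in day 3 A, by 1.74 to 2.36 in day 3 B to E and by 1.88 to 2.23 on day 7 (log2 scale). *Ifit3*, an antiviral tetratricopeptide protein, was at 7.47, 51.97, 19.98, 32.7 and 47.2 CPM on day 3 and at 35.8, 39.7, 16.7, 31.2 and 31.3 CPM on day 7. The shams of *Ifit3* held 3.99 to 10.3 CPM on day 3 and 4.36 to 13.7 CPM on day 7 (log2 fold change after MCAO -0.05, SE 0.39, adjusted p = 0.987). Day 3 A lay within the range of its shams for *Ifit3*, and day 7 C, high for phagocyte genes, was the lowest day 7 library. *Ifit3b*, its near copy, was at 1.07, 8.13, 2.996, 3.42 and 3.53 CPM on day 3 and at 13.8, 11.2, 5.35, 7.197 and 5.01 CPM on day 7, and reads that fit both equally well were counted for neither.

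Among 18 chemokine genes 0 passed an adjusted p under 0.05 by edgeR, with 2 higher and 5 lower at an unadjusted p under 0.05, and 1 was called lower without both libraries (*Cxcl16*). *Cxcl2*, a chemokine that attracts neutrophils, was at 0.534, 0, 141, 0 and 8.81 CPM on day 3 and at 0, 1.02, 1.19, 6.72 and 0 CPM on day 7. *Cxcl9*, a chemokine induced by interferon gamma, had 1 count in the day 3 libraries together and 0.577, 1.53, 7.14, 0.9596 and 2.51 CPM on day 7 (adjusted p = 0.118, edgeR). Most of these values lie near the worth of 3 counts. Among 19 cytokine and NF-kB genes 0 passed by edgeR, with 0 higher and 6 lower at an unadjusted p under 0.05, and 2 were called lower without both libraries (*Socs3* and *Tgfb1*). *Socs3*, the feedback inhibitor of cytokine signalling, was at 3.74, 23.05, 148, 36.6 and 102 CPM on day 3 and at 9.81, 9.67, 24.99, 13.9 and 11.9 CPM on day 7 (log2 fold change -2.16, SE 0.58, adjusted p = 0.0989, and -2.76, adjusted p = 0.00186, without both libraries). *Il1b*, interleukin 1 beta, was at 0, 2.71, 118, 3.42 and 5.73 CPM on day 3 and at 2.88, 1.02, 3.57, 3.36 and 2.51 CPM on day 7. Both were highest in day 3 C.

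Of 20 reactive astrocyte genes, 16 had a negative log2 fold change (median -0.87), 3 passed an adjusted p under 0.05 (*Lcn2*, *Nes* and *Serpina3n*) and 8 were called lower without day 3 A and day 7 C (median -1.32). *Serpina3n*, a secreted protease inhibitor of reactive astrocytes, was at 6.94, 73.2, 216, 143 and 152 CPM on day 3 and at 40.4, 31.04, 17.8, 25.4 and 40.7 CPM on day 7 (log2 fold change -1.93, SE 0.44, adjusted p = 0.0339, and -2.09, adjusted p = 0.000316, without both libraries). Day 3 B to E lay above all day 7 libraries, and these in turn above all day 7 shams at 2.73 to 8.58 CPM. *Nes*, nestin, a filament of reactive and immature glia, was at 3.74, 32.5, 83.4, 67.9 and 78.4 CPM on day 3 and at 17.3, 10.2, 23.2, 5.28 and 23.2 CPM on day 7 (log2 fold change -1.77, SE 0.39, adjusted p = 0.0222, and -2.25, adjusted p = 1.05e-05, without both libraries). *Gfap*, with the values given at the start, had a log2 fold change of -1.03, SE 0.32, adjusted p = 0.189, and -1.06, SE 0.28, adjusted p = 0.0142, without both libraries. Day 7 C was the lowest day 7 library for *Gfap* and *Serpina3n* and the highest for *Spp1* and *Gpnmb*.

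Of 18 genes of astrocyte homeostasis, 0 passed an adjusted p under 0.05 by edgeR, with 3 higher and 2 lower at an unadjusted p under 0.05 (median 0.12). *Slc1a2*, the main astrocytic glutamate transporter, was at 2677, 2417, 1518, 1933 and 1538 CPM on day 3 and at 2848, 2719, 1738, 2895 and 2918 CPM on day 7 (log2 fold change 0.38, SE 0.13, adjusted p = 0.226, and 0.62, SE 0.12, adjusted p = 0.000633, without both libraries, where it was called higher). *Aldh1l1*, a folate enzyme of astrocytes, was at 14.4, 37.5, 30.96, 40.04 and 33.9 CPM on day 3 and at 18.5, 19.8, 16.1, 27.8 and 23.2 CPM on day 7 (log2 fold change -0.57, SE 0.22, adjusted p = 0.289). In *Slc1a2* day 3 A was the highest day 3 library, and in *Aldh1l1* it was the lowest.

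Among 22 myelin and oligodendrocyte genes, 17 had a negative log2 fold change (median -0.39) and 2 passed an adjusted p under 0.05, *Trf* and *Apod*. *Trf*, transferrin, the iron carrier that oligodendrocytes make, was at 53.9, 453, 672, 923 and 620.0 CPM on day 3 and at 131, 131, 115, 102 and 201 CPM on day 7. The shams of *Trf* held 52.3 to 120.0 CPM on day 3 and 70.7 to 86.3 CPM on day 7. After MCAO *Trf* had a log2 fold change of -2.0, SE 0.41, adjusted p = 0.0138, and -2.24, adjusted p = 8.96e-05, without both libraries. Day 3 A was below all day 7 libraries and the other 4 were above them. *Apod*, a lipocalin of oligodendrocytes and vascular cells, was at 143, 432, 509.9, 354 and 529.7 CPM on day 3 and at 165, 205, 205, 202 and 245 CPM on day 7. The shams of *Apod* held 86.7 to 101 CPM on day 3 and 97.1 to 113 CPM on day 7. After MCAO *Apod* had a log2 fold change of -0.95, SE 0.20, adjusted p = 0.0208, and -1.16, adjusted p = 4.19e-05, without both libraries. All 10 libraries were above the shams of their day. *Mbp*, the myelin basic protein, overlapped between the days and was at 763, 1632, 1520.2, 2188 and 1486 CPM on day 3 and at 1380.1, 1586, 875, 1366 and 2408 CPM on day 7 (log2 fold change 0.00, SE 0.29, adjusted p = 1). Of 13 precursor genes 0 passed an adjusted p under 0.05 by edgeR, with 4 higher and 2 lower at an unadjusted p under 0.05, and 1 was called lower without both libraries, *Olig1* (median 0.15 with all 10 libraries and 0.12 without both). *Gpr17*, a receptor of oligodendrocytes on the way to myelination, was at 12.3, 23.9, 18.98, 33.7 and 16.3 CPM on day 3 and at 36.9, 35.6, 28.6, 46.1 and 36.3 CPM on day 7 (log2 fold change 0.80, SE 0.26, adjusted p = 0.203), where all libraries were above the shams at 6.84 to 11.4 CPM. *Olig1*, a transcription factor of the lineage, was at 81.7, 191, 246, 273 and 237 CPM on day 3 and at 119, 124, 110.1, 115 and 153 CPM on day 7 (log2 fold change -0.73, SE 0.19, adjusted p = 0.0815, and -0.89, adjusted p = 0.000705, without both libraries).

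Of 19 genes of endothelium and blood-brain barrier, 16 had a negative log2 fold change (median -0.59), 3 passed an adjusted p under 0.05 (*Pecam1*, *Vwf* and *Esam*) and 5 were called lower without both libraries (median -0.76). *Pecam1*, the adhesion molecule CD31, was at 27.8, 89.02, 201, 57.1 and 147 CPM on day 3 and at 22.5, 33.1, 56.5, 32.1 and 28.2 CPM on day 7. The shams of *Pecam1* held 21.02 to 30.8 CPM on day 3 and 24.03 to 38.8 CPM on day 7. After MCAO *Pecam1* had a log2 fold change of -1.6, SE 0.32, adjusted p = 0.0129, and -2.08, adjusted p = 1.27e-05, without both libraries. On day 7, C alone was above the highest sham. *Vwf*, the von Willebrand factor, was at 9.61, 60.1, 110.4, 23.9 and 96.5 CPM on day 3 and at 13.3, 13.7, 22.01, 18.7 and 31.9 CPM on day 7 (log2 fold change -1.6, SE 0.33, adjusted p = 0.0142, and -1.91, adjusted p = 3.91e-05, without both libraries). *Esam*, an adhesion molecule of endothelial junctions, was at 26.2, 67.3, 136, 65.4 and 132 CPM on day 3 and at 40.96, 35.6, 42.2, 33.1 and 30.1 CPM on day 7 (log2 fold change -1.23, SE 0.27, adjusted p = 0.0222, and -1.52, adjusted p = 9.68e-05, without both libraries). In these 3 genes day 3 A was the lowest day 3 library. *Cldn5*, the tight junction protein claudin 5, did not overlap between the days, with 18.2, 18.98, 28.5, 20.02 and 26 CPM on day 3 and 11.5, 12.7, 10.7, 5.28 and 10.02 CPM on day 7, but missed the threshold (log2 fold change -1.15, SE 0.33, adjusted p = 0.123). Its shams did not overlap either, with 7.03 to 14.01 CPM on day 3 and 2.74 to 6.07 CPM on day 7. Of 20 angiogenic genes 0 passed an adjusted p under 0.05 by edgeR, with 0 higher and 7 lower at an unadjusted p under 0.05, and 3 were called lower without both libraries (median -0.46 with all 10 libraries and -1.06 without both). *Eng*, the TGF-beta co-receptor endoglin, was at 14.4, 14.5, 38.5, 17.1 and 25.1 CPM on day 3 and at 6.35, 6.11, 23.8, 6.24 and 8.14 CPM on day 7 (log2 fold change -1.12, SE 0.36, adjusted p = 0.196, and -1.82, adjusted p = 0.0014, without both libraries). *Apln*, apelin, a peptide of sprouting vessels, was at 26.2, 47.4, 59.9, 45.9 and 49.8 CPM on day 3 and at 21.3, 23.9, 14.3, 24.5 and 19.4 CPM on day 7 (log2 fold change -1.14, SE 0.28, adjusted p = 0.0598).

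Scar genes rested on day 7 C. Of 30 fibroblast and collagen genes, 24 had a positive log2 fold change with all 10 libraries (median 0.54), and 23 had a negative one without day 3 A and day 7 C (median -0.78, 2 called lower). *Col1a1*, the first chain of type I collagen, was at 24.02, 62.4, 108, 6.84 and 347 CPM on day 3 and at 39.2, 52.9, 2090.0, 161 and 129.6 CPM on day 7. *Col1a1* had a log2 fold change of 2.17, SE 0.62, adjusted p = 0.123, and of -0.45, SE 0.45, adjusted p = 0.626, without both libraries. Day 7 C was far above all other libraries, and the remaining 9 overlapped. *Igf2*, a growth factor of meningeal and vascular fibroblasts, was higher at an adjusted p under 0.05, at 56.6, 46.1, 32.96, 10.3 and 61.7 CPM on day 3 and 32.3, 58.02, 468, 79.6 and 123 CPM on day 7. *Igf2* had a log2 fold change of 1.87, SE 0.39, adjusted p = 0.0142, and of 0.95, SE 0.32, adjusted p = 0.066, without both libraries. *Igfbp2*, a binding protein for such factors, was lower, at 29.9, 60.6, 142, 115 and 136 CPM on day 3 and 34.6, 37.2, 26.2, 45.6 and 54.5 CPM on day 7 (log2 fold change -1.29, SE 0.27, adjusted p = 0.0181, and -1.4, adjusted p = 0.000316, without both libraries). *Col10a1*, a network-forming collagen chosen after its values had been seen, was at 0 in all day 3 libraries and at 1.15, 1.53, 44.6, 0.9596 and 0 CPM on day 7. *Cpz*, a carboxypeptidase of the extracellular matrix chosen in the same way, was at 0 in all day 3 libraries and at 2.31, 1.53, 14.3, 2.399 and 0 CPM on day 7. Day 7 C held most of both.

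Proteases with their inhibitors and the matrix proteins of wounds showed the same dependence. Of 20 protease and inhibitor genes 3 passed an adjusted p under 0.05, all lower and *Timp1* and *Serpina3n* among them, and 8 were called lower without both libraries (median 0.04 with all 10 libraries and -1.63 without both). *Timp1*, an inhibitor of matrix metalloproteinases, was at 5.87, 47.4, 126, 72.3 and 133 CPM on day 3 and at 5.19, 9.16, 46.4, 9.12 and 5.01 CPM on day 7. *Timp1* had a log2 fold change of -2.37, SE 0.53, adjusted p = 0.0283, and of -3.7, SE 0.49, adjusted p = 1.15e-06, without both libraries. In *Timp1* day 3 A was the lowest day 3 library and day 7 C the highest day 7 library. Of 18 basement membrane and matricellular genes 0 passed an adjusted p under 0.05 by edgeR, with 1 higher and 3 lower at an unadjusted p under 0.05, and 7 were called lower without both libraries (median -0.01 with all 10 libraries and -1.11 without both). *Fn1*, fibronectin, was at 40.6, 108, 279.7, 76.2 and 355 CPM on day 3 and at 30.6, 45.3, 443, 55.2 and 74.5 CPM on day 7. *Fn1* had a log2 fold change of -0.41, SE 0.41, adjusted p = 0.733, and of -1.99, SE 0.29, adjusted p = 9.57e-06, without both libraries. *Tnc*, tenascin C of wounds and reactive glia, was at 6.94, 23.5, 44.9, 38.1 and 78.4 CPM on day 3 and at 8.65, 9.16, 15.5, 6.72 and 6.26 CPM on day 7 (log2 fold change -2.05, SE 0.50, adjusted p = 0.0555, and -2.58, adjusted p = 0.000902, without both libraries). *Thbs1*, thrombospondin 1, was at 1.07, 9.94, 94.9, 9.28 and 82.4 CPM on day 3 and at 2.31, 1.53, 19.6, 3.84 and 1.25 CPM on day 7. *Thbs1* had a log2 fold change of -2.8, SE 0.78, adjusted p = 0.112, and -4.39, adjusted p = 0.000425, without both libraries. Of 15 pericyte and smooth muscle genes 0 passed by edgeR, with 0 higher and 2 lower at an unadjusted p under 0.05, and 2 were called lower without both libraries, *Abcc9* and *Tagln*.

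**Figure D4:**
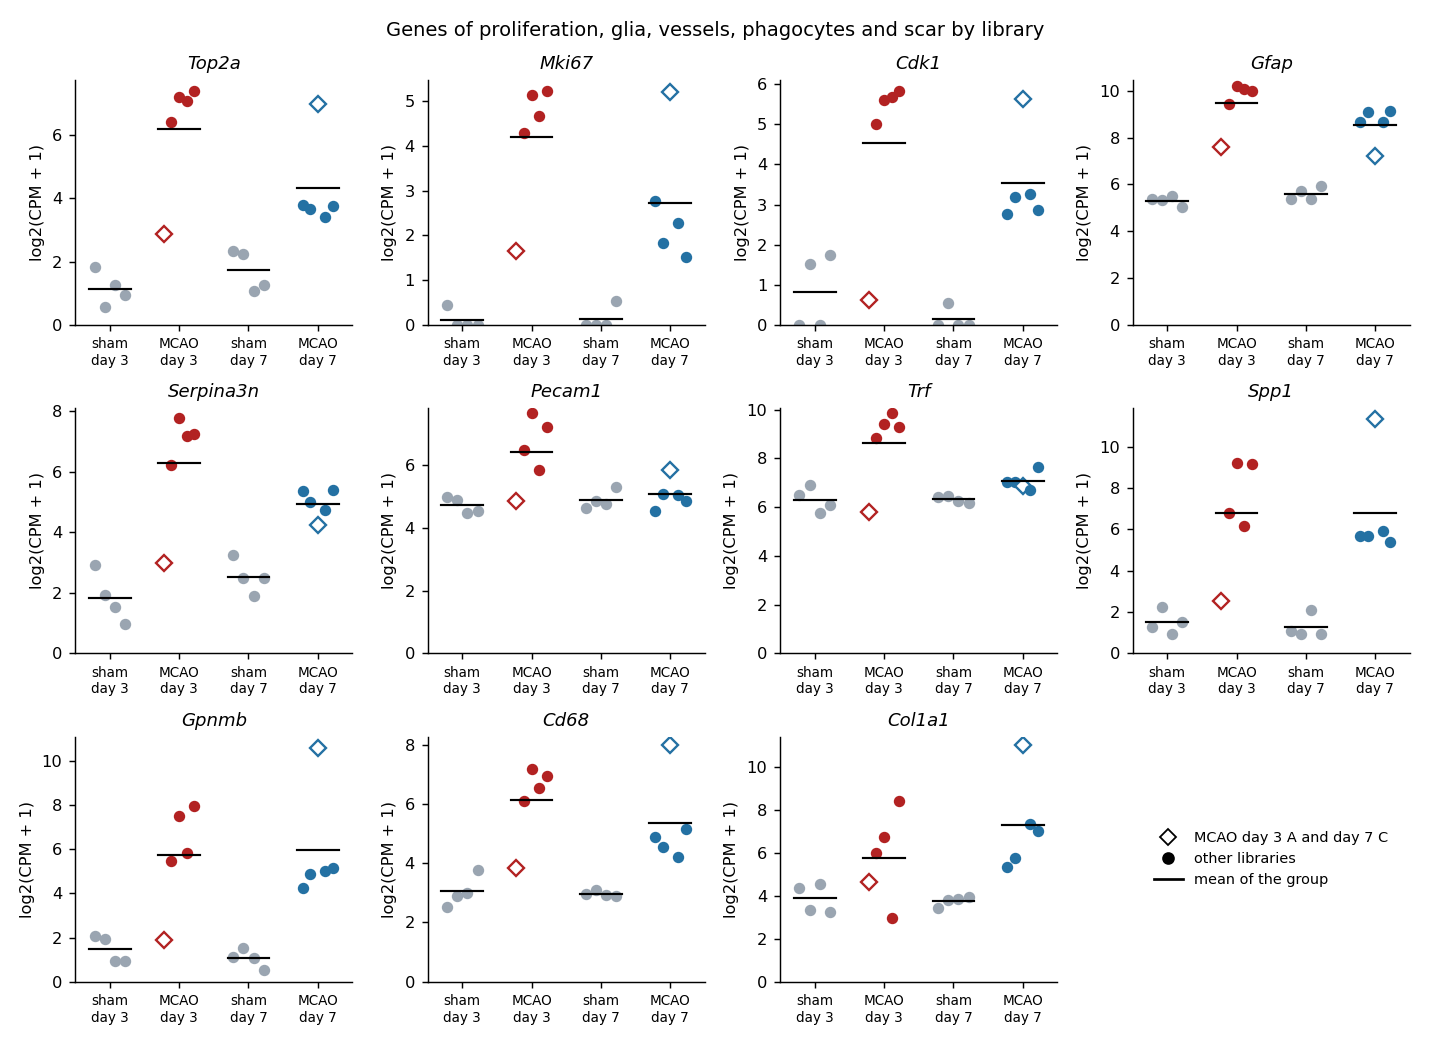
Levels of 11 genes as log2(CPM + 1) in the 4 day 3 shams, 5 day 3 MCAO, 4 day 7 shams and 5 day 7 MCAO libraries, 1 point a library, with the group mean as a line and MCAO day 3 A and day 7 C as open diamonds. For *Top2a*, *Mki67* and *Cdk1* the day 3 diamond lies low and the day 7 diamond high, for *Spp1*, *Gpnmb*, *Cd68* and *Col1a1* the day 7 diamond is the highest point, and for *Gfap* and *Serpina3n* it is the lowest of the day 7 MCAO points.

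Among stress and metabolic genes, single members passed. Of 20 hypoxia and glycolysis genes 17 had a negative log2 fold change (median -0.32), and 3 were called lower without both libraries (median -0.29). With all 10 libraries 1 passed an adjusted p under 0.05, *Hmox1*, the heme-degrading oxygenase. It was at 1.07, 18.98, 80.9, 79.6 and 109 CPM on day 3 and at 0.577, 3.05, 29.2, 1.92 and 5.64 CPM on day 7. *Hmox1* had a log2 fold change of -2.87, SE 0.66, adjusted p = 0.0339, and -4.69, adjusted p = 3.14e-06, without both libraries. *Slc16a3*, a lactate exporter, was at 1.601, 8.59, 42.4, 19.04 and 28.2 CPM on day 3 and at 1.15, 4.07, 11.9, 6.24 and 3.13 CPM on day 7. *Slc16a3* had a log2 fold change of -1.91, SE 0.59, adjusted p = 0.181, and of -2.7, SE 0.61, adjusted p = 0.00322, without both libraries. Of 22 genes of stress and acute injury 2 passed, the *Lcn2* and *Timp1* already given. Cholesterol synthesis genes leaned the other way, with 15 of 20 positive (median 0.27), and 18 of 20 without both libraries (median 0.40). By edgeR 0 of them passed an adjusted p under 0.05, with 5 higher and 0 lower at an unadjusted p under 0.05, and 1 was called higher without both, *Hmgcs1*. *Hmgcs1*, an early enzyme of the pathway, was at 419, 351, 220.2, 232 and 249 CPM on day 3 and at 454, 360.3, 234, 554 and 393 CPM on day 7 (log2 fold change 0.44, SE 0.16, adjusted p = 0.276, and 0.74, adjusted p = 0.00129, without both libraries). *Sqle*, squalene epoxidase, was at 48.6, 34.8, 21.97, 38.1 and 27.8 CPM on day 3 and at 61.7, 36.6, 30.3, 75.8 and 43.8 CPM on day 7 (log2 fold change 0.54, SE 0.21, adjusted p = 0.309).

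Of 20 neuron genes 0 passed an adjusted p under 0.05 by edgeR, with 2 higher and 2 lower at an unadjusted p under 0.05, 12 were positive (median 0.07), and 1 was called higher without both libraries, *Map2*. *Map2*, a microtubule protein of dendrites, was at 1583, 1174, 759, 1132 and 1011 CPM on day 3 and at 1527, 1476, 1162, 1691 and 1589.5 CPM on day 7. *Map2* had a log2 fold change of 0.40, SE 0.13, adjusted p = 0.203, and of 0.63, SE 0.13, adjusted p = 0.00114, without both libraries. *Rbfox3*, the neuronal nuclear protein NeuN, was at 619, 723, 721, 652 and 628 CPM on day 3 and at 639, 683, 387, 595 and 589 CPM on day 7 (log2 fold change -0.21, SE 0.15, adjusted p = 0.628). Of 12 interneuron genes 0 passed by edgeR, with 1 higher and 1 lower at an unadjusted p under 0.05, and 0 were called without both libraries. *Pvalb*, parvalbumin, was at 26.7, 78.2, 179.8, 94.2 and 112 CPM on day 3 and at 35.2, 31.6, 32.7, 26.4 and 24.4 CPM on day 7. The shams of *Pvalb* held 41.1 to 127 CPM on day 3 and 82.6 to 246 CPM on day 7 (log2 fold change after MCAO -1.71, SE 0.50, adjusted p = 0.149), so that all 5 day 7 libraries were below their shams. *Calb2*, calretinin, was at 29.9, 11.7, 8.49, 5.37 and 10.1 CPM on day 3 and at 24.2, 19.3, 52.4, 23.03 and 31.9 CPM on day 7. Of 19 activity-regulated genes 0 passed by edgeR, with 2 higher and 2 lower at an unadjusted p under 0.05, and 0 were called without both libraries. *Bdnf*, a growth factor of active neurons, was at 51.8, 47.9, 23.97, 23.4 and 61.3 CPM on day 3 and at 50.8, 46.3, 48.8, 93.6 and 93.9 CPM on day 7.

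The 138 genes called higher on day 7 without day 3 A and day 7 C (0.691% of the genes tested) were all positive with 10 libraries as well. Of them, 3 belonged to any of the lists, which held 571 of the 19970 genes tested. So small a part of all genes was listed that the count of 3 is no result about the lists. The 4 described next were chosen after their values had been seen, and they say nothing about the 138 as a group.

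*Arf3*, a small GTPase of vesicle traffic, was at 439.9, 353, 306, 429 and 312 CPM on day 3 and at 824, 743, 403, 659.7 and 591 CPM on day 7, against 472 to 620.0 CPM in the day 3 shams and 792 to 916 CPM in the day 7 shams. *Arf3* had a log2 fold change of 0.81, SE 0.16, adjusted p = 0.0102, and of 1.01, SE 0.16, adjusted p = 2.37e-05, without both libraries. The shams of *Arf3* were also higher on day 7, with no overlap between the days (log2 fold change 0.57, unadjusted p = 0.00186, edgeR). *Syt17*, a synaptotagmin, was at 89.2, 28.9, 19.5, 18.1 and 18.1 CPM on day 3 and at 73.3, 63.6, 54.7, 86.8 and 74.5 CPM on day 7, against 29.05 to 62.1 CPM in the day 3 shams and 46.9 to 62.5 CPM in the day 7 shams (log2 fold change 1.04, adjusted p = 0.178, with all 10 libraries and 1.82, SE 0.30, adjusted p = 6.35e-05, without both). *Nptxr*, the neuronal pentraxin receptor of excitatory synapses, was at 1857, 587, 345, 566 and 429.7 CPM on day 3 and at 1159, 1241, 771, 1610.3 and 1082 CPM on day 7, against 826 to 1682 CPM in the day 3 shams and 991 to 1505 CPM in the day 7 shams (log2 fold change 0.63, adjusted p = 0.4, with all 10 libraries and 1.4, SE 0.26, adjusted p = 0.000356, without both). In these genes day 3 B to E lay below all day 3 shams, and in *Syt17* and *Nptxr* day 3 A lay above them. *Gabra2*, a subunit of the GABA-A receptor, was higher with all 10 libraries at an adjusted p under 0.05, at 104, 69.6, 40.95, 82.04 and 37.9 CPM on day 3 and 181, 176, 157, 223 and 75.2 CPM on day 7 (log2 fold change 1.28, SE 0.28, adjusted p = 0.0256, and 1.51, adjusted p = 0.00116, without both libraries). On day 7, E alone lay within the day 3 range of *Gabra2*.

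Markers of neighbouring tissue were read as a check of dissection. Of 11 genes of striatum and thalamus, 10 of choroid plexus and ependyma and 6 of red blood cells, 0 passed an adjusted p under 0.05 by edgeR. Their medians were -0.19, 0.51 and 0.68. The mean level of the striatum and thalamus list, relative to the shams of the day, ranged from -0.49 to 1.01 on day 3 and from -1.29 to 0.76 on day 7 on the log2 scale, with day 7 C lowest. *Ttr*, transthyretin, the defining transcript of choroid plexus, was at 9.08, 28.9, 0, 3.42 and 0 CPM on day 3 and at 0.577, 0, 4.16, 48.5 and 0 CPM on day 7. It was thus at 0 in 2 libraries of each day. The part of dissection in the results was not tested.

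The shams were compared to see which genes differed with time without the occlusion. Between day 7 and day 3 of sham, 1 gene was called (0.00501% of the genes tested), *Gcsh*, a carrier protein of the glycine cleavage system, with a log2 fold change of 1.43, SE 0.22, adjusted p = 0.00111, and of -0.14 after MCAO. No gene was called in both comparisons, which with 7 and 1 calls says little about shared changes. A fit of the shams of both days alone called 68 genes. At an adjusted p under 0.05 in the main fit, the pseudogene *Tmem181b-ps* was higher in both comparisons. It was at 12.8, 12.2, 9.99, 8.301 and 5.29 CPM on day 3 and at 55.96, 46.8, 19.04, 19.2 and 9.39 CPM on day 7, against 5.08 to 8.43 CPM in the day 3 shams and 17.3 to 28 CPM in the day 7 shams, and reads that fit its parent gene equally well were not counted for either. Over the 33 lists the median log2 fold change in sham ranged from -1.0 for choroid plexus and ependyma to 0.77 for red blood cells. It was -0.62 for activity-regulated genes, -0.55 for cytokine and NF-kB genes and -0.28 for reactive astrocyte genes. The mitosis, replication, granulocyte and monocyte lists each had 0.00, with members such as *Mki67* near 0 CPM in sham.

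The change from day 3 to day 7 after MCAO was also tested against that after sham, as an interaction in the same model. By edgeR 0 genes were called, with 3231 at an unadjusted p under 0.05, DESeq2 called 57 and limma-voom 1, and 30 genes (0.150% of those tested) passed an adjusted p under 0.05 by edgeR. With 1 library left out, the 30 became between 0 (without sham day 7 D) and 483 (without MCAO day 3 A). Each of the interaction results below at this limit was thus lost without sham day 7 D. Of the 7 genes called within the injury, *Gpd1* and *Mrps6* were among the 30. *Gpd1* differed by -1.82 on the log2 scale (SE 0.33, adjusted p = 0.01), with -1.24 after MCAO and 0.58 after sham. *Mrps6* differed by -1.53 (SE 0.30, adjusted p = 0.0158), with -1.05 after MCAO and 0.48 after sham. *Igfbp2* differed by -1.87 (SE 0.42, adjusted p = 0.0418). For *Lcn2*, *Chil1*, *Igf1*, *Tenm4* and *Wdfy1* the adjusted p of the interaction was 0.792, 0.0722, 0.0677, 0.29 and 0.436, so that a change other than that of the shams was not shown for them.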

How the data were processed

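Poly(A) RNA of 48 mouse brain samples in 11 groups was sequenced from its ends (QuantSeq 3′ FWD, which gives about 1 tag a transcript), with ERCC spike-ins, and all samples had an RNA quality number above 8 per the labels. The authors deposited counts per gene and library. Per the study's methods they trimmed the reads, removed ribosomal and mitochondrial ones, aligned the rest with STAR 2.5.2b to GRCm38 and counted uniquely placed reads with HTSeq on Gencode genes, so reads shared by near-identical genes were left out. Of the summary lines, reads on no gene were 21.081% to 24.518%, ambiguous ones 0.391% to 0.439% and reads not placed uniquely 28.754% to 36.887% of each of the 18 libraries of days 3 and 7. These lines and the spike-ins (3.864% to 5.968%) stayed out of library sizes and tests. No library pair held identical counts. Symbols and positions come from a later Gencode annotation of the same build, which held 46488 of the 46983 gene identifiers.

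The counts were fitted with edgeR 4.0.16 (R 4.3.3, TMM scaling, quasi-likelihood test) in 1 model of all 48 libraries and 11 groups, which share 1 estimate of spread. Genes with more than 10 counts over all libraries entered. Calls needed an adjusted p (Benjamini-Hochberg) under 0.01 and a log2 fold change beyond 0.58 either way, the limits of the study's methods. Adjusted p-values are over all genes tested and two-sided. DESeq2 1.42.0 and limma 3.58.1 (voom) served as alternatives, and figures were drawn with matplotlib 3.10.9. CPM are edgeR's values relative to the TMM-scaled library size. Each count carries sampling error, and 3 counts are taken as the limit that a count of 0 allows. The steps were tested on simulated counts, with the same spread of a gene in all groups and no library set apart. The simulation therefore does not cover the libraries that stood apart here. Genes were named where called, with no overlap between the days and a mean of at least 2 CPM, at most 12 in each direction, by list (up to 4 called members, or the 2 with the lowest p where none was called), and *Apoe* and *Trem2*. Some others are said to be chosen after their values were seen. Further genes, such as *Mki67*, *Cdk1*, *Spp1*, *Gpnmb* and *Cd68*, were also picked outside these rules with their values known. Some named genes are not reported here. The members, lists and rules were chosen with earlier results of these data known. Promoters are RefSeq sequence of GRCm38.p6. Letters A to E were not taken to pair libraries across days, since same-letter libraries deviated together for some letters and not for others. The correlation of their deviations from the group means over 10227 genes was 0.29 for A, 0.12 for B, 0.53 for C, -0.01 for D and -0.08 for E.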

Additional observations from a re-analysis of the deposited data

Results flagged for a closer look

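Of 268 groups of 4 or 5 libraries in which a named gene was examined, 30 held 1 library far from the others by Dixon's test. Its nominal chance rate is about 1 in 20 groups. That rate does not hold where 1 count stands against values of 0, as in several flagged groups. Most genes were also named from these same libraries, so the 30 are not set against that rate. Of the 15 flagged in injured groups, 7 fell on MCAO day 7 C and 5 on MCAO day 3 A. MCAO day 7 C was high for *Igf1* (440.2 CPM, others 36.5 to 52.6), *Apoe* (14649, others 3369 to 4559), *Trem2* (183, others 18.7 to 35.6), *Lipa* (154.7, others 21.4 to 37), *Timp1* (46.4, others 5.01 to 9.16) and *Eng* (23.8, others 6.11 to 8.14), and low for *Slc1a2* (1738, others 2719 to 2918). MCAO day 3 A was low for *Trf* (53.9, others 453 to 923), *Trem2* (13.9, others 45.6 to 70.4), *Pbk* (3.74, others 13 to 19.5), *Ighm* (11.7, others 33 to 45.9) and *Aldh1l1* (14.4, others 31 to 40). *Wdfy1* was low in MCAO day 7 E (12.5, others 54.2 to 61.3), *Psmb10*, a proteasome subunit, in MCAO day 7 A (16.7, others 31.3 to 39.9), and *Cxcl9* was at 0.441 in MCAO day 3 E, which is 1 count, with the others at 0.

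Among shams, the values apart from the rest were for *Mrps6* 38.7 CPM in day 7 C (others 50.9 to 53.7), *Igfbp2* 10.8 in day 3 D (others 24.9 to 29), *Trbc2* 26.6 in day 7 B (others 38.9 to 42), *Aldh1l1* 24.6 in day 7 D (others 13.5 to 14.9), *Npas4* 14.3 in day 3 B (others 16.4 to 16.7), *Cd74* 4.62 in day 3 B (others 0.934 to 1.09) and *Trem2* 7.09 in day 7 C (others 12 to 12.3). At or below the worth of 3 counts were *Arg1* (0.923), *Ccr2* (0.462) and *Pbk* (0.462) in day 3 B, *Cxcl2* (0.467) in day 3 C, *Cd80* (0.363) in day 3 A, *Lcn2* (0.467) in day 7 B and *Aqp1* (0.572) in day 7 A, each with the others at 0, and *Ccr2* at 0 in day 7 D with the others at 0.467 to 0.572.

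The change from day 3 to day 7 differed between MCAO and sham for *Gpd1* (-1.82 on the log2 scale, adjusted p = 0.01), *Mrps6* (-1.53, adjusted p = 0.0158) and *Igfbp2* (-1.87, adjusted p = 0.0418) by the interaction test of edgeR at an adjusted p under 0.05. Without sham day 7 D, 0 genes passed this limit in the same test.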

How the results depend on the processing

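The count of 7 genes called between day 7 and day 3 after MCAO depended on the processing, and the causes were not tested. It was 8 with DESeq2's size factors, 8 with edgeR's filter on low counts (13532 genes), 7 with robust fitting, 5 with spike-in scaling, 45 by DESeq2, 69 with no filter, 1 with only the 18 libraries of days 3 and 7, 0 with only the 10 compared libraries, 0 by limma-voom, and 58 at an adjusted p under 0.05 with no minimum fold change. Leaving out 1 library gave 0 to 105. Without MCAO day 3 A and MCAO day 7 C it was 530, and 934 with only the 8 compared libraries left, an alternative chosen after seeing the data. For sham the 1 call became 4 with DESeq2's size factors, 42 by DESeq2, 2 with the filter, 22 with no filter, 68 with only the compared libraries, 0 with the 18 libraries, 0 with spike-in scaling, 10 by limma-voom, 2 with robust fitting, 4 without both MCAO libraries, 13 at the looser threshold, and 0 to 2 with 1 library left out. For the interaction the 0 calls became 3 with DESeq2's size factors, 57 by DESeq2, 37 with no filter, 1 with the 18 libraries, 1 with spike-in scaling, 1 by limma-voom, 233 without both MCAO libraries, 30 at the looser threshold, and 0 to 32 with 1 library left out.

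With the replicate letter as a block the counts were 8 (2 higher and 6 lower) after MCAO, 2 after sham and 0 for the interaction. The letters name samples only, and 2 of 5 day 3 and 1 of 5 day 7 libraries correlated best with the library of their own letter.

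Over the 67 named genes and all alternatives, 1273 values kept direction and side of the threshold, 135 newly passed it, 62 no longer passed it and 1 changed direction past it. The last was the log2 fold change of Trem2, 0.27 with all 10 libraries and -1.03 with the 8 compared libraries. Of the 67 named genes, only *Trem2* and *Npas4* changed sign under any of these alternatives. Genes described outside the 67 were not counted here. Among these, *Spp1*, *Gpnmb*, *Col1a1* and, by a small margin, *P2ry12* changed from a positive to a negative log2 fold change without MCAO day 3 A and MCAO day 7 C. Spike-in scaling moved the median of all genes to 0.143 after MCAO, to -0.153 after sham and to 0.303 for the interaction. At 1522668 to 2194243 counts on genes in an injured library, genes at a few CPM rest on single counts.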
